A study of Mus musculus with 28 samples.

Results

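Malat1, Neat1, Meg3, Rian, Mirg, Miat, Gas5, Snhg1 and Snhg11 are long noncoding RNA genes whose transcripts are known to act in the nucleus or to be processed there. They are taken by name, with no threshold on a measured value, and are 9 of the 23942 gene names in the authors' table of FPKM (fragments per kilobase of gene, scaled to library size). Of the 9, 8 also have a row in the authors' comparison tables, which list 22919 genes and test 21192. Mirg has its FPKM alone, so no test was made for it. The assay measured newly made RNA and separated no cell fraction, so nuclear location is background here and was not measured.

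The study measured nascent transcription by Bru-seq, in which bromouridine is built into RNA made during a short pulse and the labelled RNA is pulled down with an antibody and sequenced. Cultures of cortex and hippocampus from embryonic day 18 CD1 mice held neurons, astrocytes and oligodendrocyte precursors, and each was made from embryos pooled at a matched sex ratio. On day 14 in vitro every culture received a lentivirus with a control hairpin (shCtrl) or one against Rai1 (shRai1), a chromatin-binding protein gene, so the shCtrl cultures were infected too. On day 17 they were given water as vehicle, 1 µM tetrodotoxin (TTX), which blocks sodium channels and silences firing, or 20 µM bicuculline (BIC), which blocks GABA-A receptors and raises firing, for 4 h, with 2 mM bromouridine in the last 20 min. The 16 libraries form 6 groups: shCtrl with vehicle (2 libraries), TTX (3) and BIC (2), and shRai1 with vehicle, TTX and BIC (3 each). A further 12 samples, of RAI1 ChIP-seq, were not used here. The files used here hold no values per library, so replicate spread enters only through the standard error (SE) of each deposited log2 change, and the depth of each library is unknown.

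Long noncoding RNAs carry no long open reading frame and work as RNA. Malat1 collects in nuclear speckles, which store splicing factors, and Neat1 is the scaffold on which paraspeckles assemble. Meg3, Rian and Mirg are transcribed one after another from the maternal chromosome in the imprinted Dlk1-Dio3 domain, and Rian and Mirg are hosts of small nucleolar RNAs and microRNAs. Miat, also called Gomafu, is a neuronal RNA that binds splicing factors. Gas5, Snhg1 and Snhg11 are spliced hosts of small nucleolar RNAs, which lie in their introns.

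Several facts of the whole series bear on these genes. Of 15 activity-regulated genes used as a check, the authors' deposited tables call 15 lower with TTX in each arm, and with BIC 7 higher and 2 lower in shCtrl and 11 higher and 2 lower in shRai1. Rai1 itself was not called lower in the shRai1 libraries: its log2 change against shCtrl in the authors' deposited tables was 0.16 ± 0.07 (SE) in vehicle, -0.12 ± 0.06 in TTX and 0.03 ± 0.07 in BIC, so nascent Rai1 does not check the arm labels. Pdgfra, the defining marker of oligodendrocyte precursors, was lower in shRai1 by the authors' deposited table in vehicle, at -1.37 ± 0.13 (adjusted p = 6.02e-21), and in BIC, at -0.90 ± 0.13 (adjusted p = 1.93e-07). In TTX the authors' deposited table calls Pdgfra higher in shRai1, at 0.50 ± 0.11 (adjusted p = 0.0482). Summed over 8 markers each, the pooled FPKM in the 3 shCtrl conditions spanned 524 to 594 for neurons, 259 to 331 for astrocytes and 163 to 191 for the oligodendrocyte lineage, with 0 markers of each list at 0 in vehicle. Single markers moved with treatment: with TTX in shCtrl the authors' deposited table calls 4 of 8 oligodendrocyte lineage markers lower and 1 higher, with a median of -0.60, and 4 of 8 astrocyte markers lower and 0 higher. With TTX in shRai1 it calls 5 of 8 oligodendrocyte lineage markers higher and 0 lower. In such mixed cultures, fewer cells of a type and less RNA per cell cannot be told apart.

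The 9 genes covered a wide range of levels (plot of level per length). In shCtrl vehicle the authors' pooled FPKM was 1030 for Malat1, 287 for Meg3, 158 for Gas5, 94.7 for Snhg11, 72.3 for Snhg1, 64.5 for Rian, 39.3 for Mirg, 20.8 for Miat and 11.8 for Neat1. The file's bounds on these values did not overlap between Malat1 and Meg3, Gas5 and Snhg11, Mirg and Miat, or Miat and Neat1. The other neighbours in this order (Meg3 and Gas5, Snhg11 and Snhg1, Snhg1 and Rian, Rian and Mirg) had overlapping bounds. By the mean normalized count over all libraries, which grows with gene length, Malat1 ranked number 53 of all genes at 17897 and Neat1 number 9465 at 165.

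**Figure D1:**
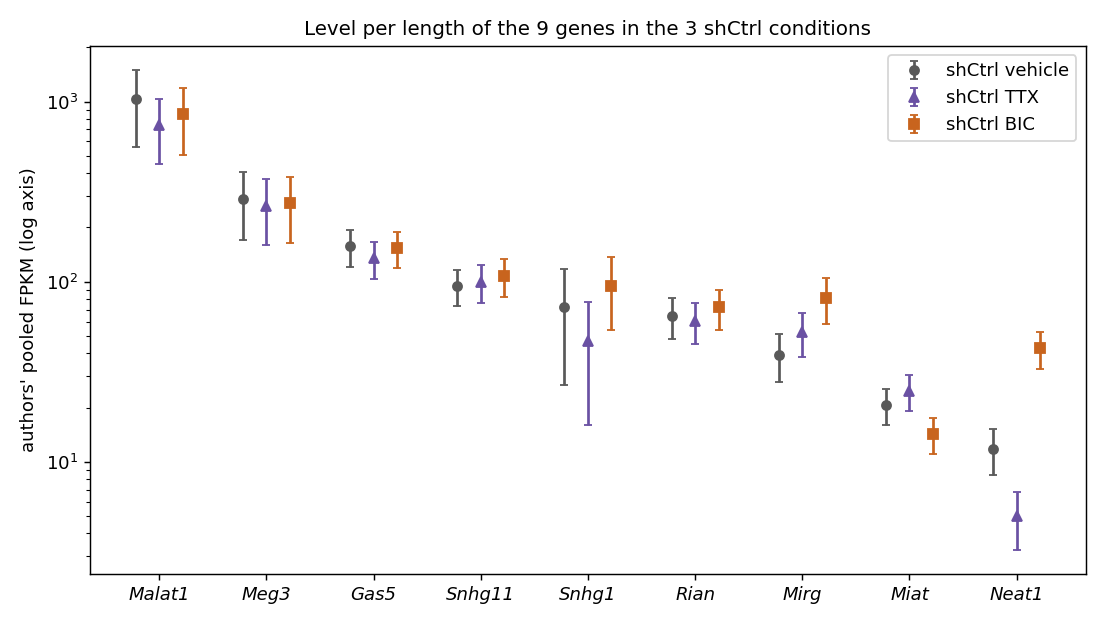
Level per length of the 9 genes, as the authors' pooled FPKM on a log axis, in shCtrl cultures with vehicle, TTX or BIC; bars are the lower and upper bounds given in the file, with 1 pooled value per condition. Malat1 is highest and Neat1 lowest in vehicle, and only Neat1 after TTX or BIC and Mirg after BIC have bounds clear of their own vehicle bounds.

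Across TTX and BIC, the called changes were not all in the same direction (plot of the TTX and BIC responses). With TTX in shCtrl, the authors' deposited table calls 3 of the 8 tested genes at an adjusted p under 0.05, all lower (Neat1, Malat1 and Snhg1), where 19.5% of all tested genes and 32.1% of those with a mean count of at least 50 were called. In the same comparison 4 of 8 oligodendrocyte lineage and 4 of 8 astrocyte markers were called lower, and 4 of 8 neuron markers were called lower and 1 higher; their part in the 3 falls was not tested. With BIC in shCtrl, the authors' deposited table calls 4 of 8, Neat1 and Rian higher and Miat and Malat1 lower, against 27.1% of all tested genes and 43.6% of those with a count of at least 50. In that comparison 4 of 8 neuron markers were called higher and 3 lower (median 0.35), and 1 of 8 astrocyte markers higher and 2 lower. Of 8 oligodendrocyte lineage markers 0 were called higher and 2 lower, and of 8 microglia markers 2 higher and 0 lower. Their part in the 4 calls was not tested. With TTX in shRai1 the authors' deposited table calls 1 of 8, Miat, higher, against 22.3% and 36.2%. With BIC in shRai1 it calls 6 of 8, Neat1, Rian, Snhg1, Meg3 and Snhg11 higher and Miat lower, against 35.1% and 55.7%. In this last comparison 4 of 8 neuron markers were called higher and 3 lower (median 0.37), and 2 of 8 astrocyte markers higher and 0 lower. Of 8 oligodendrocyte lineage markers 0 were called higher and 1 lower, and of 8 microglia markers 1 higher and 0 lower. Their part in the 6 calls was not tested. With 8 genes, all with a mean count of 165 or more, none of the counts of called members is read as more than the background. The TTX and BIC responses of an arm share its vehicle libraries. Averaged over the arms, 4 of 8 were called for TTX, Miat higher and Malat1, Neat1 and Snhg1 lower, where 33.1% of genes were called (15.5% higher and 17.5% lower) and 45.5% of those with a count of at least 50. For BIC 6 of 8 were called, Neat1, Rian, Snhg1, Meg3 and Snhg11 higher and Miat lower, where 46% of all genes were (22.4% higher and 23.6% lower) and 61.8% of those with a count of at least 50. With a t distribution on 10 degrees of freedom the averaged BIC calls of Meg3 (adjusted p = 0.0538) and Snhg11 (adjusted p = 0.0679) were lost. In the 4 single responses the median log2 change over the 8 genes was -0.19 (TTX, shCtrl), 0.10 (BIC, shCtrl), 0.08 (TTX, shRai1) and 0.26 (BIC, shRai1), beside medians of -0.01, -0.04, -0.01 and -0.03 over genes with a count of at least 50.

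**Figure D2:**
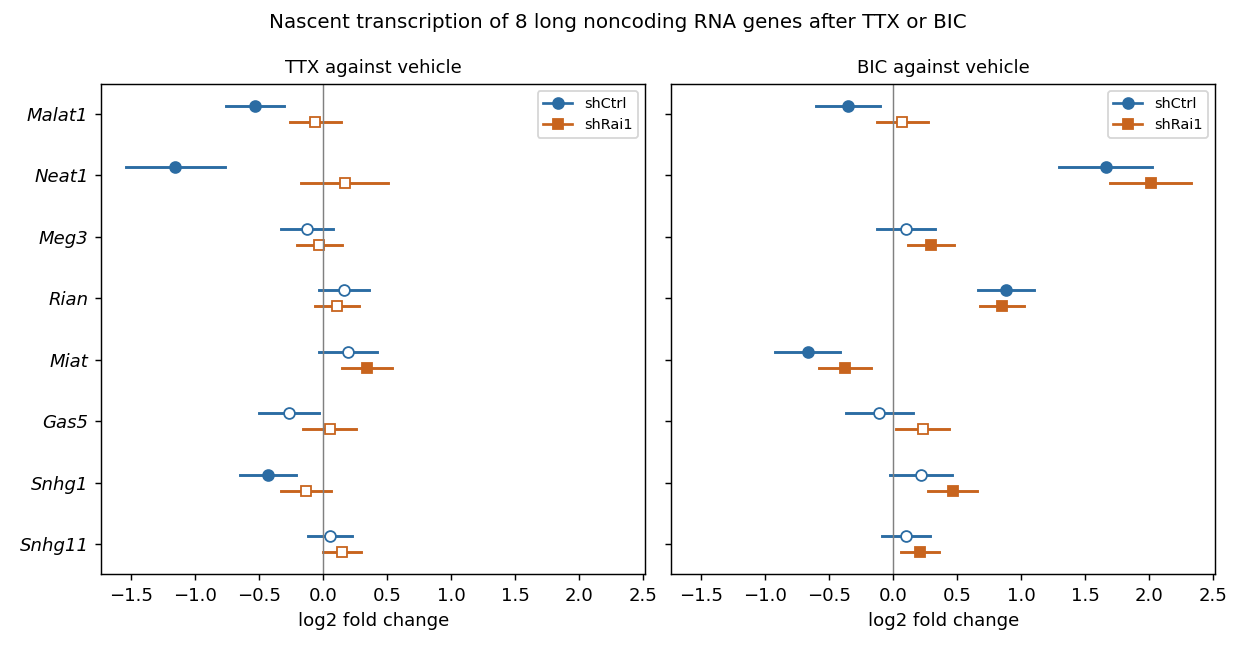
Log2 fold change after TTX (left) or BIC (right) against vehicle for 8 genes in shCtrl (circles) and shRai1 (squares), from the authors' deposited tables; bars are 95% intervals from the SE, and filled symbols have an adjusted p under 0.05. Neat1 shows the lowest value with TTX in shCtrl, -1.15, and the highest values with BIC, 1.66 and 2.01.

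Neat1 (chromosome 19, 5842302 to 5845478, mm9) had the widest range of all 9. Its pooled FPKM was 11.8 in shCtrl vehicle (bounds 8.44 to 15.2), 5.01 with TTX (3.25 to 6.78) and 42.5 with BIC (32.8 to 52.2), so the 3 intervals did not overlap. In the authors' deposited tables for shCtrl, Neat1 changed by -1.15 ± 0.20 (SE) with TTX, or 0.450 of the vehicle level (adjusted p = 1.01e-07), and by 1.66 ± 0.19 with BIC, or 3.16-fold (adjusted p = 1.36e-17). In shRai1 the BIC rise was 2.01 ± 0.16, or 4.03-fold (adjusted p = 1.15e-34), but the value with TTX was 0.17 ± 0.17 (adjusted p = 0.510), by the authors' deposited tables. In the FPKM table the interval of Neat1 is 3177 bp, 15.3% of the 20773 bp of the RefSeq gene. The gene has a short isoform and a long one that contains it, and the long isoform, on which paraspeckles are built, was not measured on its own.

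The TTX response of Neat1 differed between the arms. The difference, shRai1 minus shCtrl, was 1.32 ± 0.26 (SE; Wald test, adjusted p = 0.000442 over 18241 genes), and Neat1 was the 1 member of 8 called, where 0.943% of genes were called (0.587% higher). Before adjustment 4 of the 8 had p under 0.05, as did 9.05% of all genes and 12.2% of those with a count of at least 50. With a t distribution on 10 degrees of freedom in place of the normal one the adjusted p for Neat1 was 0.452, and over all alternatives it ran from 0.000299 to 0.452. Relative to shCtrl vehicle, Neat1 stood at -1.15 in shCtrl TTX, -0.60 in shRai1 vehicle and -0.43 in shRai1 TTX, so both shRai1 groups lay between shCtrl vehicle and shCtrl TTX. The BIC response was not shown to differ, with a difference of 0.35 ± 0.25 (adjusted p = 1.00, 95% interval -0.13 to 0.83). Of the 8 members 0 were called for the BIC difference by the Wald test, against 0.0219% of all genes; before adjustment 2 of the 8 had p under 0.05, as did 3.03% of all genes and 3.9% of those with a count of at least 50. Of 8 markers of the oligodendrocyte lineage, 6 were called higher and 0 lower in the same TTX difference, with a median of 1.13, and of 15 activity-regulated genes 2 were called higher; their part in the Neat1 result was not tested.

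Of 12 genes for paraspeckle proteins, the partners of Neat1, 11 had a test. With BIC averaged over the arms 4 were called higher and 3 lower, and with TTX 0 higher and 3 lower; their median log2 changes were -0.06 and -0.04. Of all genes 46% were called with BIC and 33.1% with TTX (61.8% and 45.5% of those with a count of at least 50), so these counts are not read as more than background. Among them Cpsf6, a subunit of the pre-mRNA cleavage factor, fell by 0.30 with TTX (SE 0.05, adjusted p = 8.13e-08), and Nudt21, its partner subunit, fell by 0.36 with BIC (SE 0.08, adjusted p = 3.82e-05). Hnrnph3, an RNA-binding protein gene, rose by 0.28 with BIC (SE 0.08, adjusted p = 0.00169). Frmd8, the next gene after Neat1 at a gap of 5495 bp, changed in the opposite direction with BIC in shCtrl, at -0.51 in the authors' deposited table (adjusted p = 0.00806), and was not called in shRai1, at -0.24 (adjusted p = 0.152).

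Malat1 (chromosome 19, 5795690 to 5802671, mm9) lies 39630 bp from the interval that the FPKM table gives for Neat1, which covers only part of that gene, and its value after BIC in shCtrl had the opposite sign. Its pooled FPKM was 1030 in shCtrl vehicle (bounds 562 to 1498), 740 with TTX (452 to 1028) and 848 with BIC (506 to 1190), with overlapping bounds. In the authors' deposited tables for shCtrl, Malat1 changed by -0.53 ± 0.11 (SE) with TTX (adjusted p = 3.92e-05) and by -0.35 ± 0.13 with BIC (adjusted p = 0.0207, and from 0.0162 to 0.0703 over the alternatives, the highest with a t distribution on 10 degrees of freedom). In shRai1, the authors' deposited tables give -0.06 ± 0.10 with TTX (adjusted p = 0.719) and 0.07 ± 0.10 with BIC (adjusted p = 0.629). The difference between the arms was 0.47 ± 0.15 for TTX (Wald test, adjusted p = 0.121) and 0.42 ± 0.16 for BIC (adjusted p = 1.00). In the plot of the groups relative to shCtrl vehicle, all 5 other groups lay below shCtrl vehicle, by 0.35 to 0.57, and close to each other. Each of the 3 comparisons in which the authors' deposited tables call Malat1 has the 2 shCtrl vehicle libraries on one side. Values for those libraries were not used here, so neither library could be left out.

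**Figure D3:**
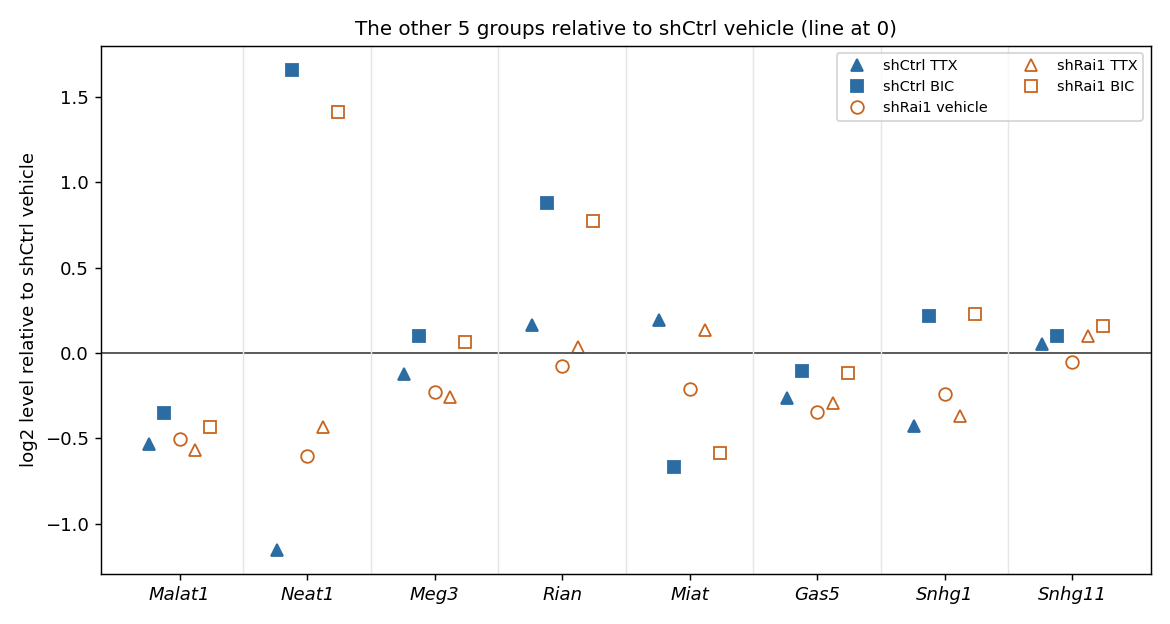
Log2 level of 8 genes in the other 5 groups relative to shCtrl vehicle, built from the authors' deposited log2 changes (shRai1 TTX and BIC as the sum of 2 of them, with no error available); filled blue symbols are shCtrl and open orange ones shRai1. Malat1 and Gas5 lie below the line in all 5 groups, while for Neat1, Rian and Miat the BIC squares of both arms stand apart from the other groups; for Neat1 vehicle and TTX do not separate across the arms.

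Of 13 nuclear speckle and splicing genes, the partners of Malat1 and Miat, 6 were called lower and 0 higher with TTX averaged over the arms, and 4 higher and 2 lower with BIC, where 33.1% and 46% of all genes were called (45.5% and 61.8% of those with a count of at least 50). Srsf11, a serine-arginine splicing factor gene, rose by 1.66 with BIC (SE 0.07, adjusted p = 4.32e-112). Srsf5, of the same family, fell by 0.74 with TTX (SE 0.06, adjusted p = 1.42e-28).

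Meg3, Rian and Mirg lie in a stretch of 208 kb on chromosome 12 (Meg3 110779206 to 110809939, Rian 110842155 to 110899921 and Mirg 110973191 to 110987667, mm9). After BIC the values were small for Meg3 and larger for the genes beyond it; the difference between them was not tested. Meg3 stood at 287 FPKM in the pooled vehicle cultures of shCtrl, 264 with TTX and 273 with BIC. Its log2 change with BIC in the authors' deposited tables was 0.10 ± 0.11 (SE, adjusted p = 0.552) in shCtrl and 0.30 ± 0.09 (adjusted p = 0.00356) in shRai1. Rian was called higher with BIC in both arms by the authors' deposited tables, by 0.88 ± 0.11 in shCtrl (adjusted p = 8.49e-14) and 0.85 ± 0.09 in shRai1 (adjusted p = 1.20e-20). Its pooled FPKM moved much less, from 64.5 to 71.9 in shCtrl, a log2 ratio of 0.16. The interval of Rian in the FPKM table is shared with 10 other entries, small nucleolar RNAs and microRNAs, and how the authors split reads among them is not given in the sources used here. Mirg, near the far end, stood at 39.3 FPKM in shCtrl vehicle (bounds 27.7 to 51.01), 52.3 with TTX (38.0 to 66.7) and 81.5 with BIC (58.0 to 105). The BIC value was 2.07 times that in vehicle with bounds apart, and the interval of Mirg is also shared with 10 microRNA entries. With TTX neither was called: Meg3 stood at -0.13 and -0.03 and Rian at 0.16 and 0.11 in the 2 arms of the authors' deposited tables.

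The entries between these genes filled in the profile (plot from Meg3 to Mirg). The gene 6430411K18Rik, between Meg3 and Rian, rose with BIC by 1.11 ± 0.21 (SE, adjusted p = 8.73e-07) in shCtrl and 0.92 ± 0.17 (adjusted p = 3.41e-07) in shRai1, by the authors' deposited tables. It shares its interval with 8 other entries, among them Rtl1, a protein-coding gene on the opposite strand. The pooled FPKM of Rtl1 in shCtrl was 21.0 in vehicle (bounds 15.1 to 26.9) and 45.9 with BIC (33.7 to 58.1), with bounds apart. The authors' deposited tests did not call this rise: Rtl1 is 1 of 7 tested genes of a list given below. Of those 7, 0 were called higher with BIC in either arm. MicroRNA hairpins with an interval of their own were looked at after the values of the genes had been seen. Between Meg3 and 6430411K18Rik, 5 of 6 hairpins had a higher pooled FPKM with BIC than with vehicle, with a median ratio of 1.89, and between Rian and Mirg 26 of 27 did, with a median ratio of 1.88. Of 273 hairpins elsewhere with an interval of their own, 108 had a vehicle value above 0. Of these 108, 36.1% were higher with BIC, with a median ratio of 0.815. The hairpins left out were at 0 in vehicle and could only stay there or rise, so this share and ratio are biased downward. Between these genes 0 hairpins were at 0 in vehicle, so the 108 are not a like reference and no conclusion is drawn from them. Entries that share the interval of Rian or Mirg were mixed. With BIC 4 of the 9 in Rian with a vehicle value above 0 were higher and 5 lower. In Mirg 6 of the 10 were higher and 4 lower, with log2 ratios from -0.72 for Mir409 to 4.22 for Mir412. With TTX the median ratio of the 108 hairpins elsewhere was 0.760, so it was below 1 with both treatments. It was 0.901 for the hairpins between Meg3 and 6430411K18Rik and 1.03 for those between Rian and Mirg. The hairpins between these genes are 61 to 121 bp long with wide bounds, and the bounds were apart for only 1 of them, Mir376c. They lie in 1 transcribed stretch and are not independent of each other. Ppp2r5c, the next gene after Mirg with a count of at least 50, at a gap of 697721 bp, had -0.02 and -0.07 with BIC in the authors' deposited tables and was not called.

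**Figure D4:**
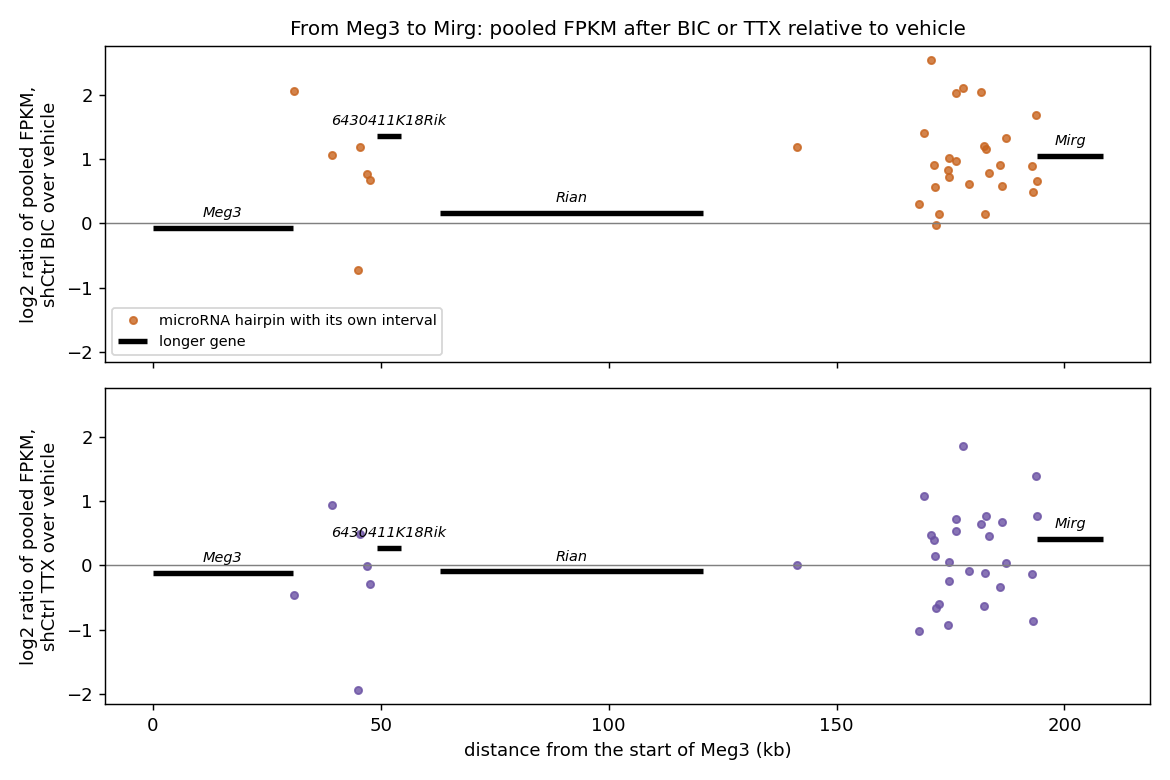
Log2 ratio of the authors' pooled FPKM in shCtrl, BIC over vehicle (top) and TTX over vehicle (bottom), against the distance in kb from the start of Meg3; points are microRNA hairpins with their own interval and black bars are the longer genes at their full width. With BIC all hairpins but Mir540 and Mir758 are above 0, and with TTX they scatter on both sides.

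The hairpins in this stretch encode the microRNAs that the domain is known for, and some that share a seed (bases 2 to 8, in capitals) are shown because 1 transcript can give several microRNAs with the same pairing bases. Mature microRNAs were not measured here. RefSeq (GRCm38.p6) lists 78 mature arms from 42 microRNA genes in Rian, in Mirg and between them, and 14 arms fall into 7 groups with a common seed, of which 4 are shown as examples. miR-134-5p, known from studies of dendritic spines, has a seed of its own.
miR-379-5p: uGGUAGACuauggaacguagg
miR-1193-5p: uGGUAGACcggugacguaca
miR-379-3p: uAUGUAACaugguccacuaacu
miR-411-3p: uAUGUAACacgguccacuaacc
miR-376c-5p: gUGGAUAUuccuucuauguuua
miR-376b-5p: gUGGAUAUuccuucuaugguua
miR-453: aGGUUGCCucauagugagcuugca
miR-496a-5p: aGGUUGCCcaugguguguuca
miR-134-5p: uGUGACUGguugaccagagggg
The first 3 pairs of this list come from between Rian and Mirg, and miR-453 and miR-496a-5p from Mirg itself.

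The list of protein-coding and other genes in or near the imprinted domain held 7 genes, of which 3 had a mean count of at least 50. Begain lies 472778 bp from Meg3, and whether the listed genes are imprinted was not measured. With BIC averaged over the arms, where 46% of all genes were called (23.6% lower), 0 of the 7 were called higher and 2 lower, a count not read as more than background: Begain, a synaptic scaffold gene, at -0.50 ± 0.09 (SE, adjusted p = 4.66e-08) and Wdr25 at -0.48 ± 0.07 (adjusted p = 5.46e-11).

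Miat (chromosome 5, 112642248 to 112657968, mm9) was the member whose values were lower with BIC and higher with TTX. Its pooled FPKM was 20.8 in shCtrl vehicle (bounds 16.02 to 25.5), 24.8 with TTX (19.2 to 30.4) and 14.3 with BIC (11.01 to 17.5). With BIC the authors' deposited tables give -0.67 ± 0.13 (SE, adjusted p = 2.84e-06) in shCtrl and -0.37 ± 0.10 (adjusted p = 0.00116) in shRai1. With TTX they give 0.20 ± 0.11 (adjusted p = 0.210) in shCtrl and 0.35 ± 0.10 (adjusted p = 0.00342) in shRai1 in the authors' deposited tables. Averaged over the arms, the TTX response was 0.27 ± 0.08 (Wald test, adjusted p = 0.00177) and the BIC response -0.52 ± 0.08 (adjusted p = 2.84e-09). Celf3, which encodes a splicing factor that binds Miat, was also lower with BIC, at -0.59 ± 0.06 averaged over the arms (adjusted p = 3.75e-19). The TTX average of Celf3 was -0.12 ± 0.06 (adjusted p = 0.114). In shRai1, where Miat was called higher with TTX, the authors' deposited table calls Celf3 lower, at -0.23 ± 0.08 (adjusted p = 0.0139). In shCtrl it stood at -0.01 ± 0.09 with TTX (adjusted p = 0.964). Tpst2, the nearer neighbour of Miat at a gap of 47758 bp, was not called with BIC in the authors' deposited tables, at -0.04 in shCtrl and -0.14 in shRai1. With TTX those tables call Tpst2 lower in shRai1, at -0.32 ± 0.09 (adjusted p = 0.00255), and not in shCtrl, at 0.003 ± 0.10 (adjusted p = 0.990). E130006D01Rik, on the other side at 451499 bp, was called lower with BIC in shRai1, at -0.59 ± 0.21 (adjusted p = 0.0146), and stood at -0.30 ± 0.25 in shCtrl (adjusted p = 0.389), by the authors' deposited tables.

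Snhg1 (chromosome 19, 8797977 to 8800816, mm9) was lower with TTX in shCtrl and higher with BIC in shRai1. Pooled over the shCtrl cultures it stood at 72.3 FPKM in vehicle (bounds 26.8 to 118), 46.6 with TTX (16.1 to 77.1) and 95.1 with BIC (53.8 to 136), with wide bounds that overlap. In the authors' deposited tables, TTX gave -0.43 ± 0.11 (SE, adjusted p = 0.000961) in shCtrl and -0.13 ± 0.10 (adjusted p = 0.354) in shRai1. BIC gave 0.22 ± 0.12 (adjusted p = 0.178) in shCtrl and 0.47 ± 0.10 (adjusted p = 1.07e-05) in shRai1, by the authors' deposited tables. The differences between arms were 0.30 ± 0.15 for TTX (Wald test, adjusted p = 0.535) and 0.25 ± 0.16 for BIC (adjusted p = 1.00), so neither response was shown to differ between arms. Slc3a2, the heavy chain of amino acid transporters, starts 117 bp away on the opposite strand and was called in the same directions in all 4 of the authors' deposited tables, at -0.28 and -0.30 with TTX and 0.28 and 0.37 with BIC. Wdr74, on the other side at 9512 bp, was called lower with TTX in both arms, at -0.57 and -0.48, and lower with BIC in shRai1, at -0.48, in the authors' deposited tables. Whether the authors' counting used strand is not given in the sources used here. For its length and FPKM, Snhg1 had a high count, 5.70 counts per kb and FPKM. That was percentile 99.3 of genes with a mean count of at least 50 and a mean FPKM of at least 0.1, where the median was 2.07.

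Gas5 (chromosome 1, 162965297 to 162968668, mm9) was called in none of the authors' 7 deposited comparisons. Its pooled FPKM was 158 in shCtrl vehicle (bounds 121 to 194), 134 with TTX and 154 with BIC. In the authors' deposited tables the smallest adjusted p was 0.0681, for BIC in shRai1 at 0.23 ± 0.11 (SE; 0.0335 with values centred on the median), and the next was 0.0896, for TTX in shCtrl at -0.26 ± 0.12. The 95% interval with BIC in shCtrl was -0.37 to 0.16, so a change of the size of Rian's lay outside it. As with Malat1, the 5 other groups all lay below shCtrl vehicle, by 0.11 to 0.35. Zbtb37, which starts 906 bp away on the opposite strand, was called in 1 of the 4 responses of the authors' deposited tables, TTX in shRai1, at 0.29 ± 0.12 (adjusted p = 0.0456).

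Snhg11 (chromosome 2, 158201374 to 158211881, mm9), a host gene known from neurons, had the narrowest range of deposited log2 changes over the 4 responses. Its pooled FPKM was 94.7 in shCtrl vehicle (bounds 72.8 to 117), 99.8 with TTX and 108 with BIC. The authors' deposited tables call it once, with BIC in shRai1 at 0.21 ± 0.08 (SE, adjusted p = 0.0148, and from 0.00420 to 0.0531 over the alternatives, the highest with a t distribution on 10 degrees of freedom), and give 0.10 ± 0.10 with BIC in shCtrl (adjusted p = 0.459).

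Of 18 other host genes of small nucleolar RNAs, 11 had a test and 5 were called lower and 0 higher with TTX averaged over the arms, with a median of -0.38. With BIC 3 were called higher and 0 lower, with a median of -0.09. Over all genes, the TTX average calls 15.5% higher and 17.5% lower and the BIC average 22.4% and 23.6%, and nothing particular to these lists is read from the counts. Snhg8 rose with BIC by 1.06 ± 0.10 (SE, adjusted p = 2.17e-23) and Snhg6 by 0.56 ± 0.09 (adjusted p = 3.58e-09), and both fell with TTX, by 0.45 (adjusted p = 0.000211) and 0.40 (adjusted p = 5.76e-05). Snhg4 fell with TTX by 0.49 ± 0.10 (adjusted p = 1.20e-05). Another list held 12 protein genes with a 5′ terminal oligopyrimidine start, a start sequence type shared with these hosts. Of the 12, 9 were called lower with TTX and 4 higher with BIC, with 0 in the opposite directions. Tpt1 stood at -0.56 ± 0.06 with TTX (adjusted p = 4.13e-17) and 0.50 ± 0.07 with BIC (adjusted p = 2.56e-13).

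Of 25 other long noncoding RNAs, 19 had a test. With BIC averaged over the arms 7 were called higher and 4 lower, where 46% of all genes were called, and with TTX 2 higher and 4 lower, where 33.1% were; neither count is read as more than background. Airn, the noncoding RNA of another imprinted domain, rose with BIC by 0.98 ± 0.08 (SE, adjusted p = 5.48e-35), and Sox2ot, which overlaps the neural gene Sox2, by 0.66 ± 0.06 (adjusted p = 8.94e-26). Dlx6os1, made beside the interneuron genes Dlx5 and Dlx6, fell with TTX by 1.88 on the log2 scale (SE 0.06, adjusted p = 2.03e-199), further than any of the 8 members.

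The knockdown contrasts, shRai1 against shCtrl in each treatment, were mostly small (plot of the knockdown contrasts). In vehicle the authors' deposited table calls Malat1 of the 8 genes, lower at -0.51 ± 0.11 (SE, adjusted p = 0.00560), where 0.576% of all tested genes and 0.965% of those with a count of at least 50 were called (0.491% of all lower). With a t distribution on 10 degrees of freedom that adjusted p was 0.641, and over all alternatives it ran from 0.00485 to 0.641. Before adjustment 5 of the 8 had p under 0.05 in vehicle, as did 7.75% of all genes and 12.3% of those with a count of at least 50. All 8 values lay below 0 in vehicle, from -0.60 for Neat1 to -0.05 for Snhg11 with a median of -0.23, beside a median of -0.01 and 51.3% below 0 among genes with a count of at least 50. This comparison shares the shCtrl vehicle libraries with the shCtrl responses. In TTX, 0 of 8 were called in the authors' deposited DESeq2 table, against 0.0283% of all genes, and before adjustment 1 had p under 0.05 (3.3% of all genes and 4.71% of those with a count of at least 50), Neat1 at 0.72 ± 0.18 (adjusted p = 0.182). In BIC, 0 of 8 were called in the authors' deposited DESeq2 table, against 0.00944%, and before adjustment 0 had p under 0.05 (2.93% and 4.22%). Averaged over treatments, 0 of 8 were called by the Wald test, against 0.00548%, and before adjustment 2 had p under 0.05 (4.12% of all genes and 5.42% of those with a count of at least 50); Malat1 stood at -0.21 ± 0.06 (adjusted p = 0.716). In the vehicle contrast 4 of 8 oligodendrocyte lineage markers were called lower and 0 higher, with a median of -0.76, and 3 of 15 activity-regulated genes were called lower. Of the astrocyte markers 1 of 8 was called lower and of the neuron markers 1 of 8 higher. The part of these cell types in the Malat1 value was not tested.

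**Figure D5:**
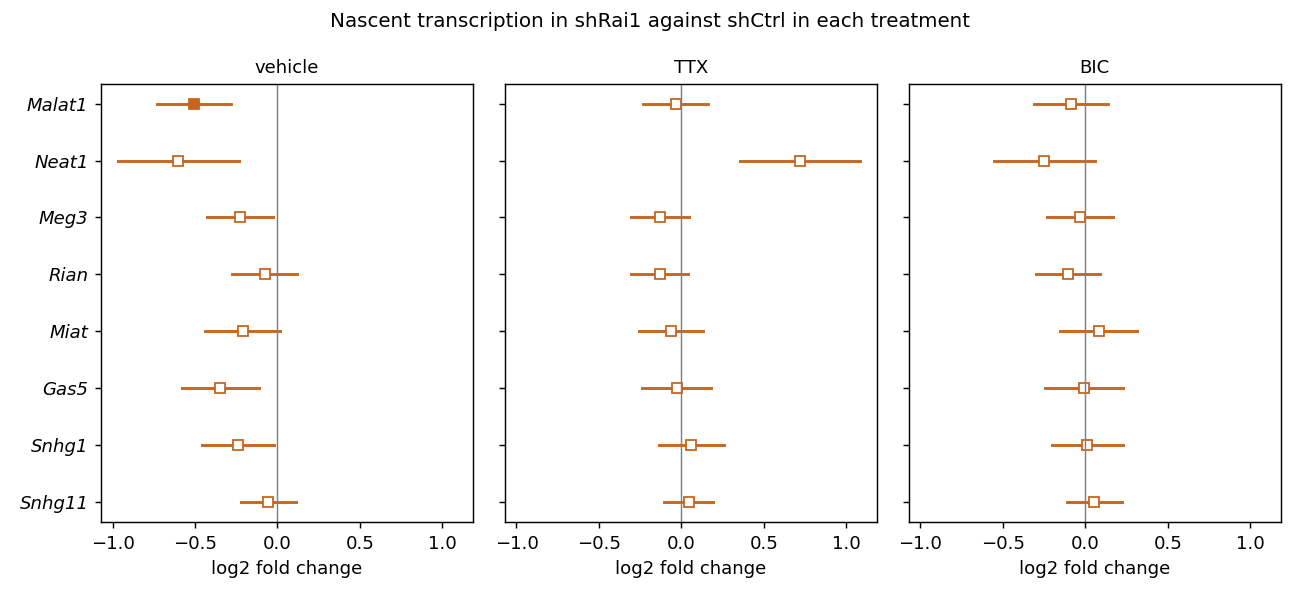
Log2 fold change of shRai1 against shCtrl for 8 genes in vehicle, TTX and BIC, from the authors' deposited tables; bars are 95% intervals from the SE, and the filled symbol has an adjusted p under 0.05. All 8 values lie below 0 in vehicle, from -0.60 to -0.05, and on both sides of 0 in TTX and BIC.

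Promoter windows of 300 bases (250 before to 50 after the start; RefSeq, GRCm38.p6) were at hand for 8 of the 9 genes, in 10 windows. The cyclic AMP response element TGACGTCA, bound by CREB, a factor of activity-dependent transcription, was in 2 of them, the first window of Meg3 at -57 and the second of Gas5 at -46 from the start. Of 32851 such windows of all genes, 1.79% hold these letters, and a match is a description only. Gas5 was called in none of the responses as deposited (with values centred on the median, BIC in shRai1 had an adjusted p of 0.0335), and Meg3 was called higher with BIC in shRai1 alone of the 4 single responses in the authors' deposited tables. The windows of Rian and Miat, which the authors' deposited tables call with BIC in both arms, held none of the motifs searched on both strands. Among other called members, the window of Malat1 held TGACG 3 times, that of Snhg1 held TATAAA 1 time and the first of Meg3 held it 2 times, counting both strands. The motifs were TGACGTCA, its shorter form TGACG (20.8% of windows), the AP-1 letters TGANTCA (7.81%), the E-box CACGTG (7.15%) and TATAAA (13.6%). The shorter form TGACG lies within TGACGTCA, so a window with the long form counts for both. The 4 windows are shown with TGACGTCA in capitals where it occurs: Meg3 at chr12:109540746-109541045 on the plus strand, Gas5 at chr1:161034916-161035215 on the plus strand, Rian at chr12:109603695-109603994 on the plus strand and Miat at chr5:112228899-112229198 on the minus strand.
Meg3: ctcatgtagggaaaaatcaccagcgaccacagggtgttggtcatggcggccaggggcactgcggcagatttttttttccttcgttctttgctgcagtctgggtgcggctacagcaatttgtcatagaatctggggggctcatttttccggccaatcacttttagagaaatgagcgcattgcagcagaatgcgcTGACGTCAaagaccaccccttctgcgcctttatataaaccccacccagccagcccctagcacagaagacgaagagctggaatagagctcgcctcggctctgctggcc
Gas5: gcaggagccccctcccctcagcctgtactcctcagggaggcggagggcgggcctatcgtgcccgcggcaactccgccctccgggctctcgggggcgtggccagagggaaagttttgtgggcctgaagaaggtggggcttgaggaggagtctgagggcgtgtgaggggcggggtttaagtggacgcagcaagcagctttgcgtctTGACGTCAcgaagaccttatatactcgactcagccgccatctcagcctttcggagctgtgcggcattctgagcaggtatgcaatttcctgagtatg
Rian: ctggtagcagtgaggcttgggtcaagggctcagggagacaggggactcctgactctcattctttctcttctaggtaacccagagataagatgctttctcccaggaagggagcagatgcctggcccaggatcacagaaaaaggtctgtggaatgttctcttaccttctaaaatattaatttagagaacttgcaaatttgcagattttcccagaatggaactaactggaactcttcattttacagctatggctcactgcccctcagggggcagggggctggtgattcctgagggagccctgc
Miat: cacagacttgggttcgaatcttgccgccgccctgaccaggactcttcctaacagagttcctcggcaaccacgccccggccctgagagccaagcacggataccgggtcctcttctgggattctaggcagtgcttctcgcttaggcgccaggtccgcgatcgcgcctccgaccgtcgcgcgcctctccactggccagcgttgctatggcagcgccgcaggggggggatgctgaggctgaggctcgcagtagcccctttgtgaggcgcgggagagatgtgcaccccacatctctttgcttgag

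Genes with the most similar pattern were sought over 5 contrasts, the 4 responses and the knockdown in TTX, among 12332 genes with a count of at least 50, by the root-mean-square (rms) difference in log2 change from the authors' deposited tables. Neat1 had no close match: the nearest, Osgin2, differed by 0.347, and the next was Lrrk2 at 0.384. Every other member called in at least 1 response had a gene within 0.07. Rian lay closest to C77370 (0.042) and 9530059O14Rik (0.043), and Miat to Ndst2 (0.052) and Nefh (0.056). Malat1 lay closest to Rps28 (0.070) and AI506816 (0.077), Meg3 to Rplp0 (0.025) and Hnrnpk (0.036), and Snhg11 to Impad1 (0.029) and Zfp871 (0.030). The nearest match is a description over 5 contrasts, several of which share libraries.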

How the data were processed

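Per the file headers, the authors deposited 7 comparison tables, each with a mean normalized count (a signal averaged over libraries after scaling), a log2 fold change, its SE, a Wald score and its p-value before and after adjustment for each gene, and a table of pooled FPKM with bounds for 6 conditions. Per the submitters' processing notes, the tools were TopHat2 2.1.0, Bowtie2 2.2.6 and DESeq2, and the build was mm9. The 7 tables come from 1 fit, since their log2 changes close to within 1e-09, and the log2 changes of low genes are pulled toward 0. Names are absent from the vehicle knockdown table and were recovered for 20107 genes by the mean count. The FPKM columns for shRai1 were not used by treatment, because only 9 of 314 strongly changed genes moved in the same direction as in the deposited comparison for TTX.

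Averages over arms and differences between arms were computed from the deposited log2 changes, with SE from summed squares, a two-sided Wald test and Benjamini-Hochberg adjustment over the 18241 genes whose FPKM averaged 0.1 or more; contrasts combined this way share no library. On simulated data with log2 changes of 1, 64.5% of 200 changed genes were recovered for the TTX difference, 57% for the BIC difference and 90% for the TTX average. With log2 changes of 0.5 the shares were 22.5%, 15% and 60.5%. The simulation drew normal errors with the deposited SE taken as known. These shares therefore leave out the uncertainty of an SE from 2 or 3 libraries per group. Calls use an adjusted p under 0.05. The nearest genes with a mean count of at least 50 that do not overlap a member, up to 3 of each gene list called in an average, and the 2 genes most like each called member were named by rule, together with Rai1 (those most like Snhg1 are not reported here); Pdgfra and the hairpins were singled out after their values were seen. Members and lists were chosen with earlier results of these data known. Promoter and microRNA sequences were copied from RefSeq (GRCm38.p6), and no coordinates were carried between builds. Python 3.11.15, pandas 2.3.3, numpy 2.4.6, scipy 1.17.1 and matplotlib 3.10.9 were used. The sample titles number the replicates 1 and 2 in shCtrl vehicle, 2 and 3 in shCtrl BIC, and 1 to 3 in each other group. Comparisons with shCtrl vehicle or shCtrl BIC are thus unbalanced over these numbers. Whether libraries of different groups with the same number share a culture is not given in the sources used here, so p-values measure the spread between these libraries.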

Additional observations from a re-analysis of the deposited data

Results flagged for a closer look

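The response of Neat1 to TTX differed between the arms: the value in shRai1 minus that in shCtrl was 1.32 on the log2 scale (SE 0.26, Wald test, adjusted p = 0.000442). It drew attention because the difference between the arms itself passed the threshold, with -1.15 in shCtrl and 0.17 in shRai1 by the authors' deposited tables. With a t distribution on 10 degrees of freedom the difference was no longer called (adjusted p = 0.452), and over all alternatives the adjusted p ran from 0.000299 to 0.452.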

How the results depend on the processing

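The number of members called kept within 1.5 times its value in all 12 contrasts when p-values were adjusted over all genes, over genes with a count of at least 50 or over those with at least 0.5 FPKM, when values were centred on the median of genes with a count of at least 50, and at a threshold of 0.01. At the threshold of 0.01, 4 single values were no longer called, all of them with BIC. By the Wald tests these were Malat1 in shCtrl (adjusted p = 0.0207) and Snhg11 in shRai1 (0.0148). The others were Meg3 (0.0165) and Snhg11 (0.0255) averaged over the arms. With a threshold of 0.1 the knockdown in vehicle called 2 members in place of 1. With a t distribution on 10 degrees of freedom the knockdown in vehicle and the TTX difference between arms called 0 in place of 1 each, since its heavier tails raise every p. Of 96 single values, 6 were no longer called with it: Malat1 with BIC in shCtrl (adjusted p = 0.0703), Snhg11 with BIC in shRai1 (0.0531) and averaged (0.0679), Meg3 with BIC averaged (0.0538), and Malat1 in the knockdown in vehicle and Neat1 in the TTX difference, given above. Centring brought Gas5 with BIC in shRai1 to an adjusted p of 0.0335, at 0.26.

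The pooled FPKM of shCtrl turned the sign of 2 values that were not called: Rian with TTX was -0.0938 (-0.0937 with 0.1 added and -0.0923 with 1) and Meg3 with BIC was -0.0770 (-0.0770 with 0.1 added and -0.0768 with 1); the cause was not tested. It gave 0.16 for Rian with BIC in place of 0.88, -0.63 and 0.39 for Snhg1 with TTX and BIC in place of -0.43 and 0.22, and 2.07 times for Mirg with BIC. No paired analysis was possible because the files used here hold no values per library, and for the same reason no replicate was left out in turn. Neat1 has the lowest mean count of the 8 tested genes, 165.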
